A study of Mus musculus with 15 samples.

Results

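Oxidative phosphorylation genes were followed across 15 libraries of mouse cerebral vessels, in the 3 groups of the study. Members were taken by gene symbol: the Nduf family, Sdha, Sdhb, Sdhc and Sdhd, the Uqcr family, the Cox4 to Cox8 families, the Atp5 family, and the mt-Nd, mt-Co, mt-Cyt and mt-Atp genes. The rule found 108 of the 22557 genes in the table, 95 on nuclear chromosomes and 13 on the mitochondrial genome. By symbol, 52 belong to complex I, 4 to complex II, 9 to complex III, 20 to complex IV and 23 to complex V. By role, 88 are subunits, 8 are assembly factors, 7 are isoforms restricted to some tissues or conditions, 4 are pseudogenes, and 1 (Atp5s) is a factor coupled to the synthase.

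All mice were wild type C57BL/6 aged 8 months and received a stereotactic brain injection of an adeno-associated virus (AAV). GFP-AL mice (5 libraries) received AAV-GFP, carrying green fluorescent protein, and then angiotensin II (AngII) plus L-NAME. AngII constricts vessels, L-NAME blocks nitric oxide synthase, and together they raise blood pressure. LH3-AL mice (5 libraries) received AAV-LH3, which carries lysyl hydroxylase 3, the product of Plod3, and the same drugs. GFP-Veh mice (5 libraries) received AAV-GFP and saline. No group combined AAV-LH3 with saline, so LH3-AL is set against GFP-AL, the same drugs with the other virus, and against GFP-Veh, which differs in both virus and drugs. The labels give no promoter for the viruses and do not say whether each library came from a mouse of its own, so p-values measure only the spread between these libraries.

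Oxidative phosphorylation passes electrons from nutrients through complexes I to IV of the inner mitochondrial membrane, pumps protons, and uses the gradient at complex V, ATP synthase. Complex I oxidises NADH, complex II oxidises succinate, complex III passes electrons to cytochrome c and complex IV reduces oxygen. Complexes I, III, IV and V are built from subunits of both genomes, complex II from nuclear subunits alone. Brain endothelial cells and pericytes carry out barrier transport and contraction, and both contain mitochondria.

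Levels are FPKM, fragments scaled to exon length and library depth. Depth in M fragments (mega, estimated from the step of 1 read) was 21.5 to 27.9 M in GFP-AL, 18.1 to 31.7 M in LH3-AL and 13.6 to 29.9 M in GFP-Veh. GFP-Veh replicates 1 to 4 had 13.6 to 16.0 M, below every library of the drug groups, and GFP-Veh replicate 5 had 29.9 M. Estimated depth thus went largely with treatment. The estimate is uncertain, since only 38.3% to 65.4% of low values came out whole within 0.1 read. Results with depth as a covariate rest on it. Plod3 lay at 19.5 to 23.2 FPKM in LH3-AL, above the 12.2 to 14.9 FPKM of GFP-AL and the 16.0 to 17.6 FPKM of GFP-Veh (0.60 ± 0.08 on the log2 scale against GFP-AL, limma adjusted p = 1.07e-04). The endothelial marker Cldn5 (758 to 1739 FPKM over all libraries) and the pericyte marker Rgs5 (370 to 1086 FPKM) were high in all 15. GFP-Veh replicate 2 and GFP-AL replicates 2 and 3 stood apart, with the 3 highest summed levels of nuclear members, and results that rest on them are given with and without them. In bulk libraries, fewer cells of a type and less RNA per cell cannot be told apart.

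Nuclear promoters of the family are known for sites of NRF1, of GABPA (also called NRF2) and of YY1. They are shown here because 95 of the members lie on nuclear chromosomes, and no dependence on these sites was measured. Promoter windows of 300 bases (250 before to 50 after the start, RefSeq, GRCm38.p6) were found for 73 of 91 nuclear members other than pseudogenes, with 78 windows in all. Both strands were searched for exact letters. GCGCANGCG, an NRF1 core, lay in 23 of the 78 windows (29.5%), against 6.25% of 32851 windows of all genes. CCGGAAG, a GABPA core, lay in 17 (21.8%), against 8.86% of all windows. AAGATGGCG, a YY1 core, lay in 7 (8.97%), against 1.4%, and TGACGTCA, the site of CREB, in 4 (5.13%), against 1.79%. In 6 of the 7 YY1 matches the letters begin after the start, 23 to 36 bases into the transcript, on the coding strand. These are 30-base stretches around the matches, 5′ to 3′ on the coding strand, with the matched letters in capitals.
Ndufa9: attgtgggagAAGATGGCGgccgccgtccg
Ndufc1: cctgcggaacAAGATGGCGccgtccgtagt
Ndufs4: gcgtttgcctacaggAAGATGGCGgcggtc
Ndufs6: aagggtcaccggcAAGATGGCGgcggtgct
Ndufs7: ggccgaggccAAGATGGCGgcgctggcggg
Atp5j2: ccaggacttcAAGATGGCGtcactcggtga
Atp5j: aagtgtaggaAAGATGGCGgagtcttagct

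Of the 9 members called in any comparison below, 6 are in the promoter table, and among their windows those of Ndufb2 and Uqcrfs1 hold 1 match each, both to TGACGTCA. Ndufb2, a small accessory subunit of complex I, and Uqcrfs1, the Rieske iron-sulphur protein of complex III, moved in opposite directions in LH3-AL against GFP-AL. Their 250 bases before the start are chr6:39592315-39592564 on the plus strand and chr13:30545317-30545566 on the minus strand (GRCm38.p6), with the matched letters in capitals.
Ndufb2: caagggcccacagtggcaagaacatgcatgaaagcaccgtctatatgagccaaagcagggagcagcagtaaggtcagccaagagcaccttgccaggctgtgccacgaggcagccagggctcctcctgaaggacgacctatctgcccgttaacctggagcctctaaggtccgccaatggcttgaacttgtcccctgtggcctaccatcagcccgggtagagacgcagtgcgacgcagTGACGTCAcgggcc
Uqcrfs1: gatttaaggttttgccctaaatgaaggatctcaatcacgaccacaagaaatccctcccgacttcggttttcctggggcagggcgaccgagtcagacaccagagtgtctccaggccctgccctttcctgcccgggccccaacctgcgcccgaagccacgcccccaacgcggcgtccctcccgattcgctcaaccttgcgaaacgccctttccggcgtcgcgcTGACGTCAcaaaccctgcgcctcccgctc
The windows of Cox5a, Ndufab1, Ndufb11 and Cox7c hold no match to any of the 4 strings.

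The messenger RNAs of the mitochondrial genome, which is transcribed as long precursors that are cut at transfer RNAs, were far above those of the nucleus. Summed over the 13 genes they averaged 66910 FPKM, against 2575 FPKM for the 75 nuclear subunits. The median was 4402 FPKM for mitochondrial and 20.4 FPKM for nuclear subunits. By group mean, mt-Co1, the catalytic core of complex IV, was highest in each group, and 11 of the 13 genes held the same rank in all 3 groups. The exceptions were mt-Atp6 and mt-Atp8, which traded neighbouring ranks between GFP-Veh and the drug groups. This trade rested on GFP-Veh replicate 2, where the ratio of mt-Atp6 to mt-Atp8 was 1.5. In GFP-Veh replicates 1, 3, 4 and 5 the ratio was 0.929 to 0.992, so mt-Atp8 was the higher there as in the drug groups by mean. These 2 genes encode subunits of the proton channel of complex V read from 1 messenger, in which they share 43 bases. Of the 12 neighbouring pairs in that order, 6 had overlapping ranges in each group, among them mt-Atp8 (mean 9659 FPKM over all libraries) with mt-Atp6 (9201 FPKM) and mt-Co2 (7524 FPKM) with mt-Co3 (7001 FPKM). Clear gaps in all 3 groups lay between mt-Co3 and mt-Cytb (4996 FPKM), and between mt-Nd3 (797.8 FPKM) and mt-Nd6 (25.2 FPKM), the only 1 of the 13 read from the opposite strand.

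**Figure D1:**
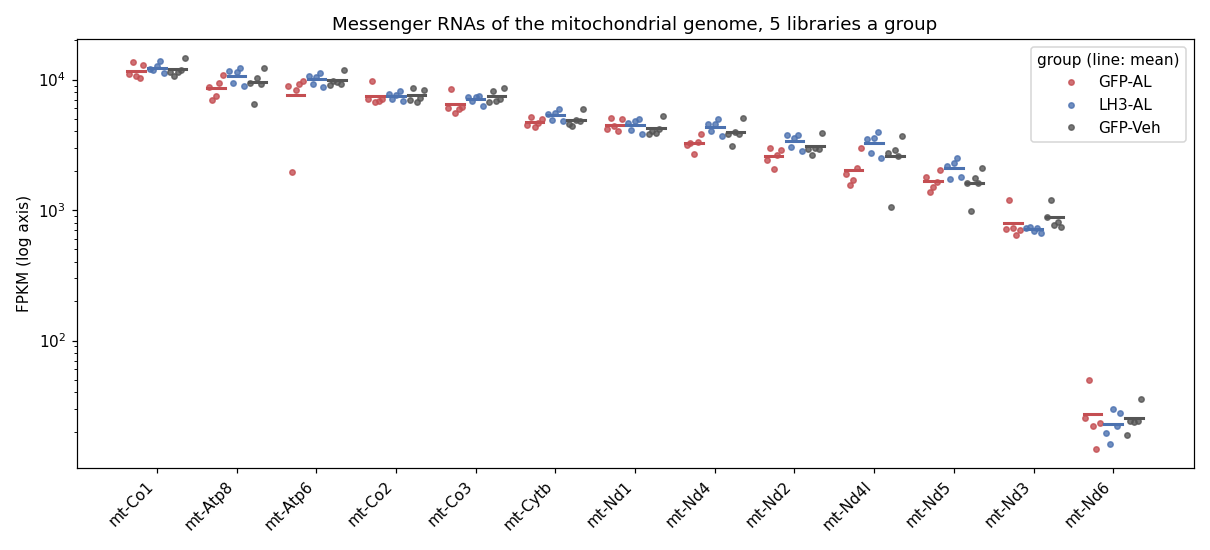
FPKM (log axis) of the 13 mitochondrial messenger RNAs in 15 libraries, grouped as GFP-AL, LH3-AL and GFP-Veh; points are libraries and lines are group means. The order of genes is nearly the same in each group, and the mt-Atp6 value of 1956 FPKM in GFP-AL replicate 2 lies far below the others.

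Nuclear subunits differed widely in level. Complex IV had the highest median (58.0 FPKM over 11 subunits), led by Cox8a (311.2 FPKM), and its lowest subunit was Cox7c (4.54 FPKM). Complex II (28.9 FPKM, 4 subunits) and complex III (28.1 FPKM, 8 subunits) followed, with Uqcrq the lowest of complex III at 20.4 FPKM. Complex V (19.5 FPKM, 15 subunits) ran between Atp5b, the catalytic beta subunit, at 80.7 FPKM and Atp5g2, an isoform of the membrane ring subunit c, at 1.24 FPKM. Complex I (16.5 FPKM, 37 subunits) was led by Ndufb9 at 80.2 FPKM and ended with Ndufb4 at 1.52 FPKM. These levels depend on the exon length assigned to a gene: the annotated exons of Ndufb2 and Ndufab1 cover 5628 and 6883 bases, for coding lengths of 315 and 468 bases, and only Ndufb4 was lower than these among the tested subunits of complex I.

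Between GFP-AL and GFP-Veh, the drugs alone, few members changed. Of 102 members with a mean of at least 1 FPKM, 1 was higher and 5 were lower in GFP-AL, 0.98% and 4.90% of those tested. Over all 13082 genes tested, 10.8% were higher and 17.7% were lower, and the members' shares were below these, although the gap in the higher direction narrowed without GFP-Veh replicate 2 (12.7% of members and 13.6% of all genes). Scaling moved the all-gene counts behind these shares: 1416 genes were higher and 2321 lower as deposited, 1843 and 1712 with median-of-ratios scaling and 1042 and 3283 with scaling to the nuclear total. With log2 of the estimated depth as a covariate the counts were 998 and 1305. The test was limma on log2(FPKM + 1) with Benjamini-Hochberg adjustment over all genes and a threshold of 0.05. Fold changes below are log2 differences of FPKM + 1 with their standard error, which understate the change of genes near 1 FPKM. The member that rose was Cox5a, and those that fell were Ndufb2, Ndufab1, Atp5s, Cox4i2 and Cox7c.

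Ndufb2 lay at 1.99, 2.30, 2.06, 1.87 and 1.83 FPKM in GFP-AL, against 3.57, 4.34, 3.27, 3.37 and 3.25 FPKM in GFP-Veh. All GFP-AL libraries were below all GFP-Veh libraries. The gene fell by 0.60 ± 0.09 on the log2 scale (limma adjusted p = 2.26e-04), and this call held in all 25 alternative analyses that gave it a value. Its exons, on chromosome 6 at 39592574 to 39603382 (GRCm38), overlap Braf and Gm16272 on the other strand and Gm42420 on the same strand. The strand of the libraries is not given, so the assignment of its reads is uncertain. Braf lay at 2.89 to 5.80 FPKM in GFP-AL and 3.86 to 5.93 FPKM in GFP-Veh, and did not pass the test (-0.22 ± 0.15, limma adjusted p = 0.283). In LH3-AL against GFP-AL, where Ndufb2 rose (below), Braf stood at 0.33 ± 0.15 and did not pass either (limma adjusted p = 0.103).

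Ndufab1 encodes the mitochondrial acyl carrier protein, a subunit of complex I that also serves fatty acid and lipoate synthesis. It lay at 1.66, 1.86, 0.582, 1.80 and 1.63 FPKM in GFP-AL, against 3.17, 3.10, 2.49, 2.80 and 2.75 FPKM in GFP-Veh, again with no overlap. It fell by 0.65 ± 0.15 (limma adjusted p = 0.00541), and the call held in all 25 alternatives with a value. It has 2 near-identical annotated copies, Gm4459 and Ndufab1-ps, so the assignment of its reads is uncertain. Atp5s, also known as distal membrane arm assembly component 2 like or factor B, had 3.79, 2.39, 1.22, 3.50 and 5.40 FPKM in GFP-AL and 5.58, 6.62, 7.56, 6.22 and 5.07 FPKM in GFP-Veh. The groups overlapped at a single library, GFP-AL replicate 5. It fell by 0.84 ± 0.22 (limma adjusted p = 0.00967), and without GFP-AL replicates 2 and 3 and GFP-Veh replicate 2 the value was -0.45 and no longer called (adjusted p = 0.0577).

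The other 3 calls of this comparison belong to complex IV. Cox5a, a nuclear subunit on the matrix side, had 52.1, 79.5, 71.4, 46.6 and 52.1 FPKM in GFP-AL and 42.2, 59.0, 34.2, 45.6 and 30.8 FPKM in GFP-Veh. The groups overlapped, with GFP-AL replicates 2 and 3 highest and GFP-Veh replicate 2 above 3 GFP-AL libraries. It rose by 0.51 ± 0.18 (limma adjusted p = 0.0418), and 10 of 26 alternatives lost the call, 8 of them by leaving out 1 library: GFP-AL replicates 2 and 3, LH3-AL replicates 3 and 4 or GFP-Veh replicates 1, 3, 4 and 5 (adjusted p 0.0526 to 0.113). Cox7c lay at 3.54, 4.90, 2.65, 3.40 and 4.79 FPKM in GFP-AL and 5.13, 5.37, 4.64, 5.75 and 5.10 FPKM in GFP-Veh. It fell by 0.37 ± 0.13 (limma adjusted p = 0.0421), lost in 15 of 25 alternatives, including those without GFP-AL replicates 1, 3 or 4, LH3-AL replicates 3 or 5 and GFP-Veh replicates 1, 2, 4 or 5 (adjusted p 0.0522 to 0.103). It has 1 near-identical copy, Gm10012, at 1.41 to 3.84 FPKM in GFP-AL and 1.42 to 2.62 FPKM in GFP-Veh (medians 2.51 and 1.44 FPKM). Gm10012 stood the other way, at 0.33 ± 0.17, and was not called (limma adjusted p = 0.16). The part of read division between these copies in the Cox7c difference was not tested. Cox4i2 is described with the isoforms below.

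Between LH3-AL and GFP-AL, the same drugs with a different virus, 3 members rose and 4 fell, 2.94% and 3.92% of the 102 tested. The shares over all genes were 17% higher and 11.4% lower. These are 2227 and 1496 genes as deposited, 1784 and 1895 with median-of-ratios scaling and 3299 and 1045 with scaling to the nuclear total. This comparison and the one before share the GFP-AL libraries, so their values are not independent. The 3 higher members were Ndufb2, Ndufab1 and Atp5s, and the lower ones described here are Cox5a, Uqcrfs1 and Ndufb11.

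Ndufb2 lay at 3.19, 3.63, 2.95, 3.05 and 2.85 FPKM in LH3-AL, above all 5 GFP-AL values given above, and rose by 0.46 ± 0.09 (limma adjusted p = 0.00196). The LH3-AL values of Ndufab1 were 3.02, 2.13, 3.25, 2.10 and 2.25 FPKM, also above every GFP-AL library, and it rose by 0.52 ± 0.15 (limma adjusted p = 0.0205). In LH3-AL, Atp5s had 5.56, 7.56, 5.56, 5.17 and 4.87 FPKM, overlapping GFP-AL at its replicate 5, and it rose by 0.74 ± 0.22 (limma adjusted p = 0.0205). Of these 3, the Ndufb2 call held in all 25 alternatives, while those of Ndufab1 and Atp5s were lost in 4 of 25 and in 2 of 26, among them Ndufab1 without LH3-AL replicates 1 or 3 (adjusted p 0.0542 and 0.0523) and Atp5s without LH3-AL replicate 2 (0.054). Without GFP-AL replicates 2 and 3 and GFP-Veh replicate 2, the Atp5s value was 0.37 and not called (adjusted p = 0.104).

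The members that fell are more abundant. Uqcrfs1 had 27.8, 29.9, 32.0, 33.2 and 32.2 FPKM in LH3-AL, each below the 38.2, 42.4, 56.1, 35.6 and 37.1 FPKM of GFP-AL, and fell by 0.41 ± 0.13 (limma adjusted p = 0.0309). Ndufb11, a complex I accessory subunit on chromosome X, had 52.7, 61.9, 54.3, 53.9 and 60.3 FPKM in LH3-AL and 77.2, 88.2, 111, 61.2 and 72.4 FPKM in GFP-AL. The groups met at GFP-AL replicate 4, and the gene fell by 0.50 ± 0.16 (limma adjusted p = 0.0311). Ndufb11 exons overlap Rbm10 on the other strand, and it has 1 near-identical copy, Gm6444, so the assignment of its reads is uncertain. Rbm10 stood the other way, at 0.21 ± 0.08, and was not called (limma adjusted p = 0.0626). In GFP-AL against GFP-Veh Rbm10 fell by 0.31 ± 0.08 (limma adjusted p = 0.00983). Cox5a had 35.5, 37.4, 37.7, 39.3 and 48.5 FPKM in LH3-AL, with only LH3-AL replicate 5 inside the range of GFP-AL, and fell by 0.57 ± 0.18 (limma adjusted p = 0.0258). Without GFP-AL replicates 2 and 3 and GFP-Veh replicate 2, the values of Uqcrfs1, Ndufb11 and Cox5a were -0.25, -0.30 and -0.34, with adjusted p of 0.0391, 0.0371 and 0.086. Each of these 3 calls was lost in 6 of 26 alternatives, including the ones without GFP-AL replicate 2 and without GFP-AL replicate 3. Without GFP-AL replicate 2 the values of Uqcrfs1 and Ndufb11 were -0.40 and -0.47 (limma adjusted p 0.0538 and 0.0621), and without GFP-AL replicate 3 they were -0.30 and -0.39 (0.0728 and 0.0807). Leaving out 1 LH3-AL library also ended calls: replicates 1 or 2 for Uqcrfs1, 1, 3 or 4 for Ndufb11 and 1, 2 or 4 for Cox5a, with adjusted p over all such losses of 0.0538 to 0.0757, 0.0588 to 0.0807 and 0.0505 to 0.0651.

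**Figure D2:**
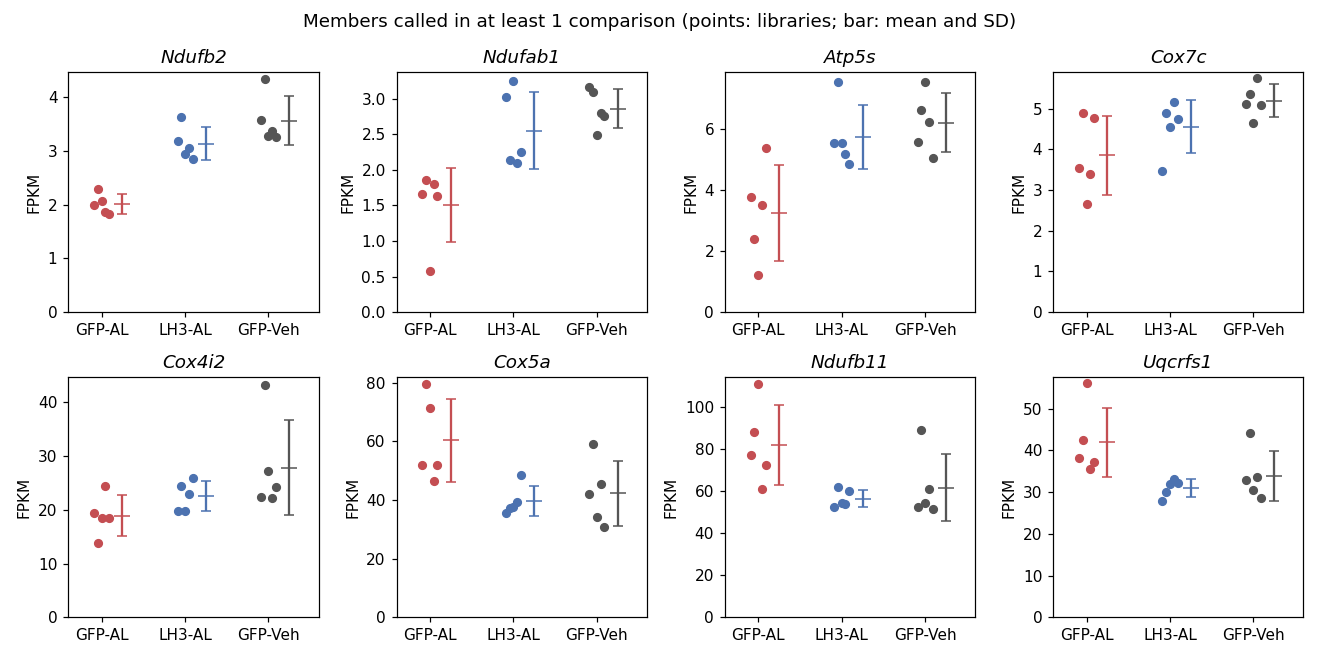
FPKM (linear axes from 0) of 8 members called in at least 1 comparison, with GFP-AL, LH3-AL and GFP-Veh left to right; points are libraries and bars are mean and SD of 5. Ndufb2 and Ndufab1 in GFP-AL lie below every library of the other 2 groups, while for Cox5a and Ndufb11 the libraries of GFP-AL are widely spread.

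LH3-AL against GFP-Veh gave no called member in either direction, by limma with adjusted p below 0.05. At an unadjusted p below 0.05 there were 4 (3.92%), against 9.02% of all genes. Over all genes 0.145% were higher and 0.375% lower, so a count of 0 among 102 is near what all genes show. The members mt-Nd3, Ndufaf2 and Atp5sl stood at -0.29 ± 0.17, -0.51 ± 0.18 and 0.28 ± 0.08, and did not pass the test. They were picked because their LH3-AL and GFP-Veh libraries did not overlap. The share of all genes that separate in this way was not counted, so nothing is read from it. The 95% intervals of the 102 members, before adjustment, reached 0.16 to 0.74 log2 units to either side, with a median of 0.33.

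The number of calls depended on GFP-Veh replicate 2. In GFP-Veh replicate 2 the nuclear members summed to 4050 FPKM, against 2280 to 2637 FPKM in the other 4 GFP-Veh libraries, and 59 of 89 tested nuclear members had their highest value of all 15 libraries there. Without it, 13 members were higher in GFP-AL than in GFP-Veh instead of 1, and 4 lower instead of 5, or 12.7% and 3.92% of members, against 13.6% and 20.3% of all genes. The 12 added are Ndufa4, Ndufa6, Ndufb9, Ndufb11 and Ndufs3 of complex I, Uqcrb, Uqcrfs1 and Uqcrq of complex III, Atp5d, Atp5k and Atp5l of complex V, and the pseudogene Atp5l2-ps. Atp5l2-ps and Atp5l are near-identical copies, so the assignment of their reads is uncertain. In LH3-AL against GFP-AL, whose fold changes do not involve that library, the shared estimate of spread narrowed, and 6 members were higher instead of 3 and 13 lower instead of 4, or 5.88% and 12.7% of members, against 19.4% and 13.4% of all genes. The 3 added on the higher side are mt-Nd2, mt-Nd4 and mt-Nd4l, all of the mitochondrial genome, and the 9 added on the lower side are Ndufa2, Ndufb9, Ndufs3, Ndufs6, Uqcrq, Cox5b, Cox6a1, Cox7a2 and Atp5d, all nuclear. Other single libraries mattered too: the lower members numbered 10 without GFP-AL replicate 4, 1 without GFP-AL replicate 2, GFP-AL replicate 3 or LH3-AL replicate 1, and 2 without LH3-AL replicate 2 or 4. The higher members of GFP-AL against GFP-Veh numbered 4 without GFP-AL replicate 4, 2 without GFP-AL replicate 5 or LH3-AL replicate 1, and 0 without GFP-AL replicates 2 or 3, LH3-AL replicates 3 or 4, or GFP-Veh replicates 1, 3, 4 or 5. Without GFP-AL replicates 2 and 3 and GFP-Veh replicate 2 together, the counts were 3 higher and 2 lower in GFP-AL against GFP-Veh, and 2 higher and 2 lower in LH3-AL against GFP-AL (all genes 11.6% and 14.6%, and 11.4% and 9.79%).

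GFP-Veh replicate 2 differed in markers as well. The summed choroid plexus and ependymal markers lay at 9217 FPKM in GFP-Veh replicate 2 and at 3690 to 4952 FPKM in the other GFP-Veh libraries, and its smooth muscle markers at 1056 FPKM against 618 to 711 FPKM. All 9 choroid markers and 7 of 8 smooth muscle markers passed the level filter. Between groups, the 9 microglial markers summed to 486 to 825 FPKM in GFP-AL, 219 to 253 FPKM in LH3-AL and 154 to 385 FPKM in GFP-Veh, and the 10 pericyte markers to 800 to 1353, 1284 to 1619 and 1359 to 1716 FPKM in the same order. The 6 red cell markers summed to 3869 to 19322 FPKM in GFP-AL, 4766 to 10109 FPKM in LH3-AL and 1469 to 3862 FPKM in GFP-Veh. The 8 neutrophil markers summed to 112 to 930 FPKM in GFP-AL, highest in GFP-AL replicate 2, 37.9 to 63.2 FPKM in LH3-AL and 78.0 to 222 FPKM in GFP-Veh, and the 12 endothelial markers to 3492 to 5277 FPKM, highest in GFP-AL replicate 3, 2301 to 3610 FPKM and 2460 to 3454 FPKM. The choroid markers summed to 1972 to 3106 FPKM in GFP-AL and 3175 to 5271 FPKM in LH3-AL. In GFP-AL against GFP-Veh 6 of 8 neutrophil markers rose, 5 of 12 endothelial markers rose and 3 fell, and 8 of 9 choroid markers fell. There, 5 of 9 microglial and all 6 red cell markers rose. Of 8 oligodendrocyte markers 5 fell, and of 8 astrocyte markers 3 fell and 1 rose. Of the smooth muscle markers 1 fell, and no neuron marker was called. In LH3-AL against GFP-AL all 8 neutrophil markers fell, 1 endothelial marker rose and 4 fell, and 6 choroid markers rose. In that comparison 6 microglial markers fell, and 4 pericyte, 3 oligodendrocyte and 2 neuron markers rose. Of the astrocyte markers 1 rose and 1 fell. No red cell or smooth muscle marker was called there, while 2 red cell markers rose in LH3-AL against GFP-Veh. The part of these cell types in the members' values was not tested.

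The 2 genomes were compared by their median fold changes. In GFP-AL against GFP-Veh the median log2 fold change was -0.13 over the 13 mitochondrial and 0.06 over the 89 tested nuclear members, beside -0.09 over all genes. In LH3-AL against GFP-AL it was 0.17 for mitochondrial and -0.15 for nuclear members, beside 0.08 over all genes, with 10 of 13 mitochondrial members above 0 and 68 of 89 nuclear members below 0. LH3-AL against GFP-Veh gave 0.08, -0.11 and -0.01 in the same order. The differences between the genomes were -0.19, 0.32 and 0.20. The same measure had an SD of 0.31 between libraries of a group, or a standard error of 0.19 for a difference of 2 group means, and was given no test. That of LH3-AL against GFP-Veh changed sign to -0.10 with estimated depth as a covariate, and fell to 0.04 without GFP-Veh replicate 2. That of GFP-AL against GFP-Veh was -0.48 with estimated depth as a covariate. It was -0.02 without GFP-Veh replicate 5, the library with the highest mitochondrial sum (82322 FPKM).

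No mitochondrial member was called in any of the 3 comparisons. The summed level of the 13 was 56068 to 69187 FPKM in GFP-AL, 62169 to 79828 FPKM in LH3-AL and 61178 to 82322 FPKM in GFP-Veh, with overlap throughout. As a share of all FPKM this was 20.4% ± 2.0 in GFP-AL, 24.7% ± 2.2 in LH3-AL and 23.6% ± 3.1 in GFP-Veh (SD, n = 5 each). Scaling each library to the nuclear total moved the median of all genes by over 0.1 (-0.19 and 0.20 in place of -0.09 and 0.08 for the drug and the virus comparison). Relative to that total, 8 members were lower in GFP-AL than in GFP-Veh and 8 were higher in LH3-AL than in GFP-AL (7.84% each), against 25.1% and 25.2% of all genes.

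**Figure D3:**
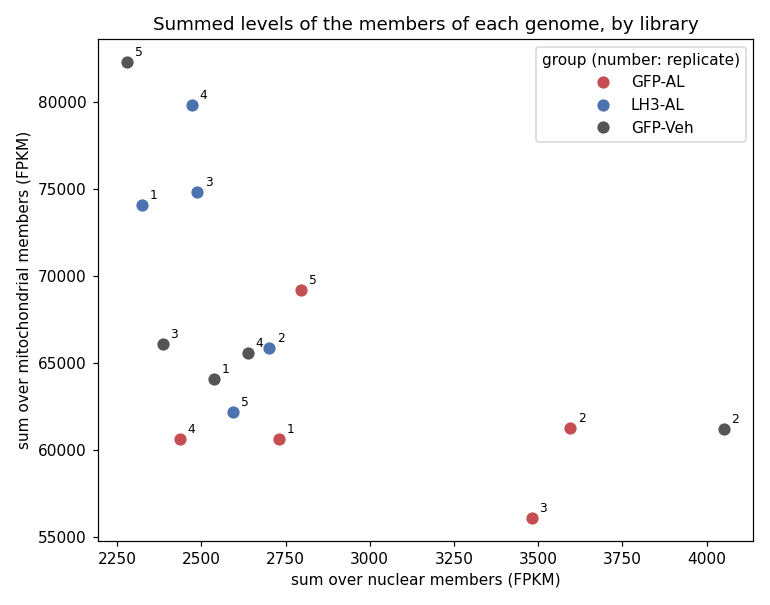
Summed FPKM of nuclear members (horizontal) and of mitochondrial members (vertical) in each library, coloured by group and numbered by replicate. GFP-Veh replicate 2 (4050 FPKM) and GFP-AL replicates 2 and 3 (3596 and 3481 FPKM) lie to the right of the other 12 libraries.

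Within the mitochondrial genome, the smallest p-values were those of 3 complex I subunits in LH3-AL against GFP-AL. mt-Nd4 had 4529, 4031, 4592, 4967 and 3666 FPKM in LH3-AL and 3165, 3275, 2675, 3343 and 3806 FPKM in GFP-AL, a difference of 0.42 ± 0.15 that did not pass the test (limma adjusted p = 0.0515). mt-Nd4l, which shares 7 bases with mt-Nd4 on 1 messenger, had 3491, 2713, 3583, 3955 and 2514 FPKM in LH3-AL and 1872, 1550, 1709, 2111 and 2965 FPKM in GFP-AL (0.69 ± 0.28, limma adjusted p = 0.0795). mt-Nd2 averaged 3392 FPKM in LH3-AL and 2606 FPKM in GFP-AL (0.38 ± 0.15, limma adjusted p = 0.0662). The groups overlapped for all 3, since GFP-AL replicate 5 exceeded the lowest LH3-AL library. They were called in 7, 3 and 5 of 26 alternatives, for mt-Nd4, mt-Nd4l and mt-Nd2 in turn, and leaving out GFP-Veh replicate 2 called all 3. Others that did so when left out were GFP-AL replicate 5, LH3-AL replicate 5 and GFP-Veh replicate 5 for mt-Nd4, GFP-AL replicate 5 for mt-Nd4l, and GFP-AL replicate 2 and LH3-AL replicate 5 for mt-Nd2 (adjusted p 0.0135 to 0.0491 over these). The other subunits of complex I on this genome, mt-Nd1, mt-Nd3, mt-Nd5 and mt-Nd6, stood at -0.02, -0.13, 0.33 and -0.15 in the same comparison, so the 7 did not share a direction.

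Outside complex I, mt-Cytb of complex III stood at 0.17 ± 0.13 in LH3-AL against GFP-AL, and mt-Co1, mt-Co2 and mt-Co3 of complex IV at 0.09, 0.01 and 0.15. In complex V, mt-Atp8 stood at 0.31 in the same comparison and was not called. mt-Atp6 had 10610, 9248, 10510, 11180 and 8724 FPKM in LH3-AL, 8988, 1956, 8281, 9168 and 9748 FPKM in GFP-AL and 9158, 9822, 9590, 9234 and 11800 FPKM in GFP-Veh. A single library, GFP-AL replicate 2, was low, and without it the difference of LH3-AL from GFP-AL was 0.15 in place of 0.59, and that of GFP-AL from GFP-Veh -0.13 in place of -0.57. In that library mt-Atp8, on the same messenger, was at 6927 FPKM, and the downstream mt-Co3 was at its group's highest, 8460 FPKM. The ratio of mt-Atp6 to mt-Atp8 was 0.282 there and 0.902 to 1.5 in the other 14 libraries.

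Near-identical nuclear copies bear on these values. For 9 of the 13 mitochondrial members at least 1 annotated nuclear gene matches at 95% identity or more over at least 150 bases, and the table gives many of them high levels: Gm10925 on chromosome 1, a copy of mt-Atp6, averaged 1453 FPKM, and Gm29216 on chromosome 1, a copy of mt-Co1, 1365 FPKM. The sources used here do not say how reads were divided between such copies, so these mitochondrial levels are uncertain. Gm10925 made up 11.1% to 14.1% of its pair with mt-Atp6 in 14 libraries and 46.2% in GFP-AL replicate 2, where its own level, 1682 FPKM, was not low. Gm10222, the copy of mt-Nd4l, stayed at 12.8% to 14.7% of its pair in all 15 libraries, and fell to 160.6 FPKM in GFP-Veh replicate 2, where mt-Nd4l was lowest too (1057 FPKM). mt-Nd1, mt-Cytb, mt-Atp8 and mt-Nd6 have no such copy.

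GFP-AL replicate 2 and GFP-Veh replicate 2 shared further traits. mt-Nd3 was 1199 and 1200 FPKM in them and 644 to 889 FPKM in the other 13. The ratio of mt-Nd6 to mt-Nd5, genes that overlap on opposite strands, was 0.0361 and 0.0249 in them and 0.00888 to 0.0170 elsewhere. The ratio of mt-Nd5 to mt-Cytb was 0.265 and 0.223 in them and 0.335 to 0.418 elsewhere. RNA quality values were not used here, and the part of RNA quality in these ratios was not tested.

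By complex, the medians over both genomes in GFP-AL against GFP-Veh were 0.01 for complex I (51 tested), 0.05 for complex II (4), 0.09 for complex III (9), 0.02 for complex IV (17) and 0.03 for complex V (21). In LH3-AL against GFP-AL they were -0.12, -0.04, -0.25, -0.18 and -0.10, and in LH3-AL against GFP-Veh -0.13, -0.03, -0.10, -0.13 and -0.01. All 5 lay below the median of all genes in LH3-AL against GFP-AL. Called members were spread over the complexes: in the drug comparison 0 higher and 2 lower in complex I, 1 and 2 in complex IV, 0 and 1 in complex V. In LH3-AL against GFP-AL they were 2 higher and 2 lower in complex I, 0 and 1 in complex III, 0 and 1 in complex IV, 1 and 0 in complex V. Complex II had no call in any comparison. The complex V call was Atp5s in both comparisons, which is not counted here as a subunit. With subunits alone, complex V had 0 higher and 0 lower in both. The median of complex IV subunits alone in LH3-AL against GFP-AL was -0.24 in place of -0.18.

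**Figure D4:**
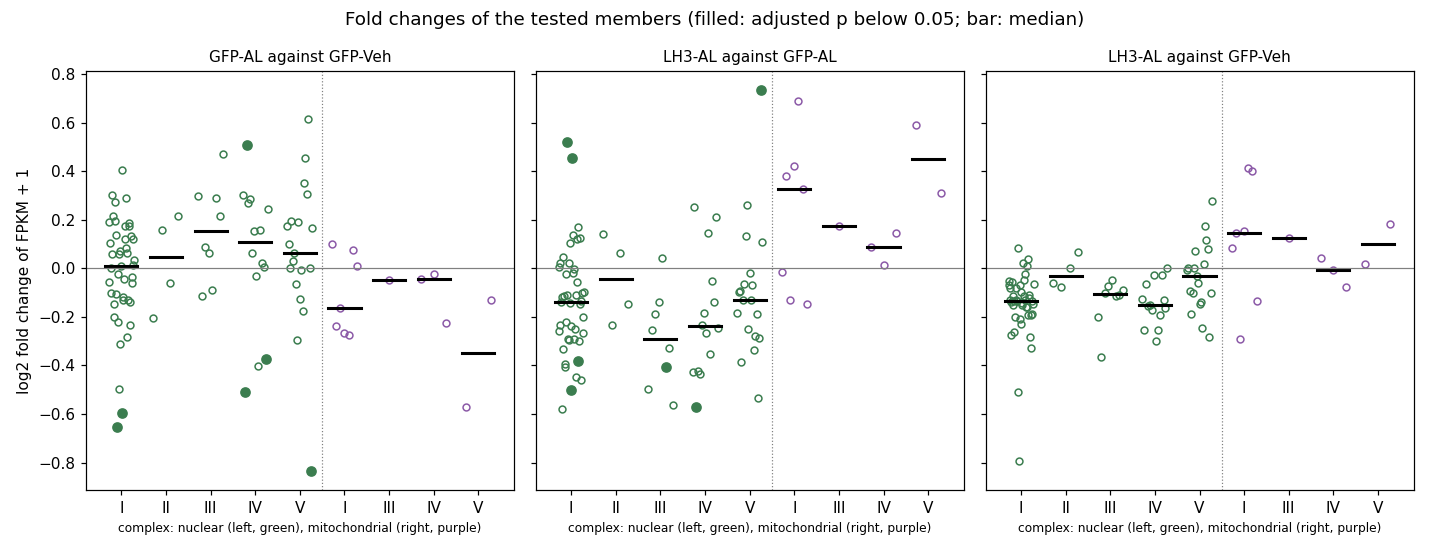
Log2 fold changes of FPKM + 1 for the 102 tested members in 3 comparisons, by complex, with nuclear members left of the dotted line in green and mitochondrial members right of it in purple; filled points have adjusted p below 0.05 and bars are medians. In LH3-AL against GFP-AL the 5 nuclear medians lie below 0 and the 4 mitochondrial medians above 0, and no mitochondrial point is filled.

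In complex II, which oxidises succinate for both the respiratory chain and the citric acid cycle, Sdha, the flavoprotein, came closest to a call. It had 34.8, 34.3, 30.9, 36.6 and 37.1 FPKM in GFP-AL, each below the 38.5, 43.7, 39.8, 39.2 and 39.2 FPKM of GFP-Veh, a difference of -0.20 ± 0.08 (limma adjusted p = 0.0553). In LH3-AL it had 40.3, 40.3, 38.4, 37.8 and 35.3 FPKM. The membrane anchors Sdhc and Sdhd differed by -0.06 and 0.21 in GFP-AL against GFP-Veh, and the iron-sulphur subunit Sdhb by 0.16, so the 4 subunits stood on both sides of 0.

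In complex III, 7 of the 8 nuclear subunits lay below 0 in LH3-AL against GFP-AL, and Uqcrfs1 alone was called. Uqcrq, a small subunit bound to mt-Cytb's product, averaged 16.7 FPKM in LH3-AL and 25.8 FPKM in GFP-AL (-0.56, limma adjusted p = 0.0573). Uqcrh, the hinge protein near cytochrome c, had 30.3, 34.0, 29.9, 31.5 and 33.6 FPKM in LH3-AL and 35.3, 51.3, 50.3, 32.4 and 35.4 FPKM in GFP-AL. The groups overlapped, with GFP-AL replicates 2 and 3 far above the other 3 (-0.33, limma adjusted p = 0.171). The core subunit Uqcrc2 was the exception at 0.04.

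Other subunits of complexes IV and V are shown by their values. Cox8a, a small nuclear subunit of complex IV, had 295.6, 466.4, 402.6, 230.8 and 354.6 FPKM in GFP-AL, 239.2, 319.3, 298.9, 302.1 and 282.4 FPKM in LH3-AL and 267.1, 440.4, 213.9, 295.9 and 259.1 FPKM in GFP-Veh. GFP-AL replicates 2 and 3 and GFP-Veh replicate 2 were the highest 3 of the 15, and the gene passed no test. Atp5b was steadier, at 80.7 to 92.0 FPKM in GFP-AL, 73.2 to 83.9 FPKM in LH3-AL and 71.7 to 93.4 FPKM in GFP-Veh (0.10 for GFP-AL against GFP-Veh and -0.10 for LH3-AL against GFP-AL, neither called). The genes of the membrane ring subunit c, which encode 1 mature protein, differed in level, with Atp5g3 at 21.7, 17.9 and 19.0 FPKM in GFP-AL, LH3-AL and GFP-Veh, and Atp5g1 at 1.74, 1.98 and 1.86 FPKM in the same order.

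The group means of the 89 tested nuclear members were lowest in LH3-AL for 65 of them, in GFP-AL for 18 and in GFP-Veh for 6. They were highest in GFP-AL for 49, in LH3-AL for 5 and in GFP-Veh for 35. Of the 13 mitochondrial members 9 had their lowest mean in GFP-AL, and 8 their highest in LH3-AL. These counts carry no test, because the members share their libraries: GFP-Veh replicate 5 alone held the lowest of the 15 values for 36 nuclear members and the highest for 6 mitochondrial ones.

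Of the 7 tested assembly factors, which build the complexes and are not part of them, none was called in any comparison by limma, with 3 at an unadjusted p below 0.05 in LH3-AL against GFP-Veh, where 9.02% of all genes were, and 0 in GFP-AL against GFP-Veh and LH3-AL against GFP-AL, where 40.6% and 41.6% were. Ndufaf2, a chaperone of a late complex I intermediate, averaged 11.2 FPKM in GFP-AL, 8.81 FPKM in LH3-AL and 13.2 FPKM in GFP-Veh. Ndufaf4, a core assembly factor of complex I, had 0.936, 1.41, 2.69, 1.07 and 3.07 FPKM in GFP-AL, 1.28, 1.27, 1.18, 1.14 and 1.15 FPKM in LH3-AL and 4.64, 1.03, 1.26, 4.36 and 4.84 FPKM in GFP-Veh. Of the GFP-Veh libraries 3 lay above every other library and 2 at the level of LH3-AL, and the difference of LH3-AL from GFP-Veh was -0.79 ± 0.30 (limma adjusted p = 0.41).

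Fold changes were also set out by level and length. In LH3-AL against GFP-AL, the 43 tested nuclear members with a mean of 20 FPKM or more had a median of -0.24, with 38 below 0 and all 4 lower calls. The 22 under 8 FPKM had a median of 0.11 and held all 3 higher calls. Over all genes, the median was 0.14 under 8 FPKM and -0.06 at 20 FPKM or more. By exon length, the 39 nuclear members under 1500 bases had a median of -0.22, and the 50 longer ones of -0.12. All genes of these lengths had medians of -0.12 and 0.09, so short genes at large stood lower as well. In GFP-AL against GFP-Veh the same 2 member classes stood at 0.10 and 0.01, beside 0.06 and -0.10 over all genes.

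Among the isoforms, 2 are known from pericytes, the contractile cells of the capillary wall. Cox4i2 is the form of complex IV subunit 4 of lung, carotid body and pericytes. Ndufa4l2 is a hypoxia-inducible relative of Ndufa4, known as a pericyte marker in brain. Ndufa4l2 exceeded its common form: 94.5, 65.6, 117, 121 and 97.3 FPKM in GFP-AL, 99.8, 105, 94.6, 98.0 and 104 FPKM in LH3-AL and 86.0, 160, 124, 101 and 98.7 FPKM in GFP-Veh, for 71.7% to 87.4% of the summed FPKM of the pair in all libraries. Ndufa4, now counted with complex IV by many authors, lay at 15.6 to 34.0 FPKM. No group separated for either gene, and neither passed the test in any comparison.

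Cox4i2 had 19.4, 13.9, 18.4, 24.5 and 18.4 FPKM in GFP-AL, 19.7, 24.4, 19.8, 22.9 and 25.9 FPKM in LH3-AL and 22.3, 43.2, 27.2, 22.2 and 24.2 FPKM in GFP-Veh. It fell by 0.51 ± 0.17 in GFP-AL against GFP-Veh (limma adjusted p = 0.0376), with GFP-AL replicate 4 inside the GFP-Veh range. The call was lost in 13 of 26 alternatives, 7 of them by leaving out 1 library: GFP-AL replicates 1, 2, 3 and 5 or GFP-Veh replicates 2, 3 and 5 (adjusted p 0.0502 to 0.089). Without GFP-Veh replicate 2 the value was -0.34. Its share of Cox4i1 plus Cox4i2 was 9.9% to 28.4% in GFP-AL, 23.1% to 31.6% in LH3-AL and 25.2% to 32.1% in GFP-Veh. The pericyte marker Rgs5 lay at 370 to 753 FPKM in GFP-AL, 688 to 978 FPKM in LH3-AL and 762 to 1086 FPKM in GFP-Veh. Another, Pdgfrb, was not lower in GFP-AL, with medians of 66.4, 61.6 and 57.8 FPKM in the same order. Of 10 pericyte markers, 3 fell in GFP-AL against GFP-Veh and 0 rose. By fold change 8 stood below 0 and 2 above. The part of pericyte number in the Cox4i2 difference was not tested.

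Muscle isoforms were low. Cox7a1 averaged 2.76 ± 0.50 FPKM in GFP-AL, 3.16 ± 0.59 FPKM in LH3-AL and 4.38 ± 2.68 FPKM in GFP-Veh (SD, n = 5 each), or 3.79% to 4.89%, 4.99% to 7.19% and 3.11% to 8.80% of its pair with Cox7a2. Cox6a2 (mean 0.842 FPKM over all libraries) and Cox8b (0.967 FPKM) did not pass the filter, nor did the testis form Cox7b2 (0.0946 FPKM). Cox6b2, also a testis form, averaged 2.58 FPKM. None of these was called. The assembly factor Ndufaf6 and the pseudogenes Atp5k-ps2 and Atp5l-ps2 did not pass the filter either, which completes the 6 members that were not tested.

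**Figure D5:**
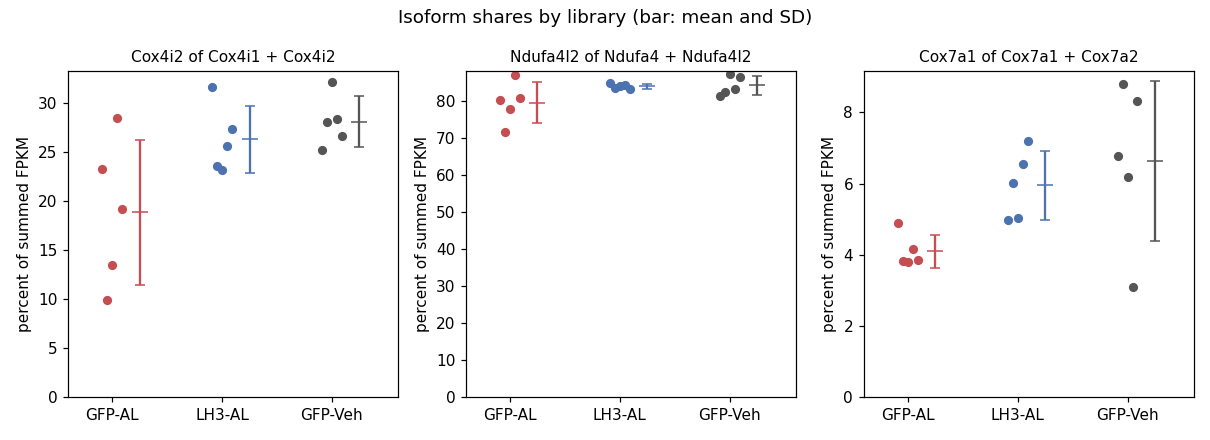
Share (percent of summed FPKM) of Cox4i2, Ndufa4l2 and Cox7a1 in the pair with the common form, with GFP-AL, LH3-AL and GFP-Veh left to right; points are libraries and bars are mean and SD of 5. The Cox4i2 share in GFP-AL runs from 9.9% to 28.4%, against 25.2% to 32.1% in GFP-Veh.

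Genes that serve the same machinery but are not members were taken from lists chosen with earlier results known. Their counts stand beside the shares of all genes given above, 10.8% higher and 17.7% lower in GFP-AL against GFP-Veh and 17% higher and 11.4% lower in LH3-AL against GFP-AL. Of 31 tested assembly factors of complexes II to V, 1 rose and 4 fell (12.9%) in GFP-AL against GFP-Veh (median -0.14), and 3 rose (9.68%) in LH3-AL against GFP-AL (median 0.02). Bcs1l, which inserts the Rieske protein into complex III, fell to 2.41 FPKM in GFP-AL, against 3.97 FPKM in GFP-Veh (-0.56, limma adjusted p = 0.0029), and was 3.62 FPKM in LH3-AL, 0.45 above GFP-AL (limma adjusted p = 0.0115). Cox20, a chaperone of mt-Co2's product, fell by 0.53 in GFP-AL against GFP-Veh and rose by 0.41 in LH3-AL against GFP-AL. Sdhaf1, which helps insert iron-sulphur clusters into complex II, rose by 0.53 in GFP-AL against GFP-Veh.

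Of 20 tested genes of mitochondrial DNA expression, 0 rose and 3 fell (15%) in GFP-AL against GFP-Veh and 3 rose (15%) in LH3-AL against GFP-AL. Tfb1m, which methylates mitochondrial ribosomal RNA, averaged 1.04 FPKM in GFP-AL, 3.03 FPKM in LH3-AL and 3.22 FPKM in GFP-Veh, a fall of 1.09 with the drugs (limma adjusted p = 0.00171) and a rise of 1.02 with LH3 (limma adjusted p = 0.00314). Mterf2, a factor bound to mitochondrial DNA, rose by 0.77 in LH3-AL against GFP-AL. Of 76 mitochondrial ribosome genes, 1 rose and 6 fell (7.89%) in GFP-AL against GFP-Veh (median 0.04), and 1 rose and 5 fell (6.58%) in LH3-AL against GFP-AL (median -0.15), with Mrpl42 in both counts, lower in GFP-AL than in GFP-Veh and higher in LH3-AL than in GFP-AL.

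Among 13 inner membrane carriers 2 (15.4%) rose in GFP-AL against GFP-Veh and 2 fell in LH3-AL against GFP-AL, Ucp2 and Slc25a5 in each case. Ucp2, an uncoupling protein homologue abundant in immune cells, averaged 108.3 FPKM in GFP-AL, 54.7 FPKM in LH3-AL and 35.6 FPKM in GFP-Veh (1.56 for GFP-AL against GFP-Veh, limma adjusted p = 2.2e-04). Slc25a5, an ADP/ATP exchanger, averaged 40.3, 27.3 and 29.4 FPKM in the same order. Of 8 tested nuclear regulators, Hif1a and Ppard rose in GFP-AL against GFP-Veh (0.65 and 0.54) and Ppard fell in LH3-AL against GFP-AL. Of 18 genes of the citric acid cycle and pyruvate dehydrogenase, Pcx (-0.59) and Idh3b (-0.23) fell in GFP-AL against GFP-Veh and Mdh2 (-0.38) fell in LH3-AL against GFP-AL. Of 16 genes for electron carriers and coenzyme Q, 1 rose and 2 fell (12.5%) with the drugs and 2 rose (12.5%) and 1 fell with LH3, where Coq2 and Gpd2 rose and Coq10b fell. In LH3-AL against GFP-Veh, limma called no gene of these lists, with 1 gene in 6 of the lists and 6 in the ribosome list at an unadjusted p below 0.05.

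The authors' deposited tables of differential genes, named for GFP-AL against GFP-Veh (1764 entries) and LH3-AL against GFP-Veh (1746 entries) and limited to an absolute log2 fold change above 1, list no oxidative phosphorylation member. The log2 fold changes in the second of the authors' deposited tables matched LH3-AL against GFP-AL computed from group mean FPKM, with a median absolute difference of 0.00587 over 1746 genes, against 1.44 over 1738 genes for LH3-AL against GFP-Veh, the comparison it is named for.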

How the data were processed

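RNA of isolated cerebral vessels was sequenced in 15 libraries, 5 in each of GFP-AL, LH3-AL and GFP-Veh. STAR 2.5.1b and the build mm8 are listed in the submitters' processing notes, with no further steps. The gene names and positions given here are those of the GENCODE M21 annotation of GRCm38, and none was converted. Per the labels, vessels were cleared of pia and choroid plexus and homogenised, and spins removed myelin and detached cells. The authors deposited a table of values they call FPKM, of which 5.99% are below 0 (lowest -0.465), and none is exactly 0, so they are not plain FPKM. The sources used here give neither the counting method nor the use of strand. Values below 0 were set to 0 and entries sharing a symbol were summed, giving 22526 symbols. The step of 1 read was sought in low values to estimate depth, but only 38.3% to 65.4% of values came out whole within 0.1 read, so no count test was run. The authors' deposited tables of differential genes give log2 fold changes and p-values or q-values, and were used only to look up members and to check which comparison each table holds.

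A gene was tested where its mean reached 1 FPKM (13082 genes). The test was limma 3.58.1 (R 4.3.3), run on log2(FPKM + 1) over all 15 libraries with group means, a variance trend and Benjamini-Hochberg adjustment at 0.05. It was checked on simulated data. Copies were sought with BLAST+ 2.17.0, and tables were handled with pandas 2.3.3 and numpy 2.4.6 in Python 3.11.15. The members and all lists were chosen with earlier results of these data known. The rule for named members took all 13 of the mitochondrial genome, the tissue isoforms with their common forms, and up to 6 called nuclear members per comparison and direction. The values of 1 called member are not reported here. Sdha and the other members and genes named beyond these were chosen after their values were seen. Alternatives changed the pseudocount, the filter, the scaling, the samples in the fit, a depth covariate, a replicate block and each library left out. The number of libraries, 5 in each group, limits the precision.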

Additional observations from a re-analysis of the deposited data

Results flagged for a closer look

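In each group of 5, a library was set apart when its gap to the nearest other library exceeded 0.71 of the group's range (Dixon's limit at 95%). This held for 17 of 99 groups examined. Chance gives about 1 in 20 for independent groups, but the members share their libraries, so that rate is no yardstick for these 17. GFP-Veh replicate 2 was high in 6 of them: Cox4i1 (111.1 FPKM), Cox4i2 (43.16 FPKM), Cox7a2 (92.08 FPKM), Ndufa4 (34.01 FPKM), Ndufb11 (89.3 FPKM) and the nuclear sum (4050 FPKM). GFP-AL replicate 2 was low in mt-Atp6 (1956 FPKM) and high in mt-Co2 (9738 FPKM), mt-Co3 (8460 FPKM) and mt-Nd3 (1199 FPKM). GFP-Veh replicate 5 was high in mt-Atp6 (11800 FPKM), mt-Nd1 (5224 FPKM), mt-Nd2 (3881 FPKM) and the mitochondrial sum (82320 FPKM). The remaining 3 were Ndufab1 in GFP-AL replicate 3 (0.5815 FPKM), Atp5s in LH3-AL replicate 2 (7.556 FPKM) and Cox5a in LH3-AL replicate 5 (48.55 FPKM). The reasons were not tested.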

How the results depend on the processing

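Of 2199 values for named results under alternatives, 64 lost a call and 24 gained one. The other 2111 stayed on their side of the threshold or were medians of complexes. Those medians have no threshold and moved by less than their SD between libraries of a group. No called value changed sign, while 87 values that were not called did, each at most 0.199 in size as deposited. Members higher in GFP-AL against GFP-Veh (1) numbered 2 with a pseudocount of 5 or the replicate block, 0 with no filter or only the 2 groups fitted, 5 with median-of-ratios scaling, 4 with quantile normalization and 3 with GFP-AL replicates 2 and 3 and GFP-Veh replicate 2 left out. Lower members (5) numbered 2 at a mean of 5 FPKM, 3 with median-of-ratios scaling, only the 2 groups or a depth covariate, 8 with scaling to the nuclear total and 2 with the 3 libraries left out. In LH3-AL against GFP-AL, higher members (3) numbered 8 with scaling to the nuclear total. Lower members (4) numbered 7 with median-of-ratios scaling, 2 with quantile normalization or the 3 libraries left out, and 9 with the replicate block. Leaving out 1 library at a time gave 0 to 13 higher and 3 to 5 lower in GFP-AL against GFP-Veh, and 2 to 6 higher and 1 to 13 lower in LH3-AL against GFP-AL, with 13 without GFP-Veh replicate 2 and 1 without GFP-AL replicate 2, GFP-AL replicate 3 or LH3-AL replicate 1. LH3-AL against GFP-Veh gave 0 in both directions throughout, the replicate block included. The cause of these changes was not tested.

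The difference of mitochondrial minus nuclear medians ran from -0.480 to -0.023, from 0.187 to 0.385 and from -0.102 to 0.339 in the 3 comparisons. Replicate numbers showed no clear pairing of libraries (15 same-number pairs, r from -0.261 to 0.286, 5 above 0.1), and 4 of 15 libraries correlated best with their own number. GFP-AL replicate 2 had r of 0.286 with LH3-AL replicate 2 and 0.258 with GFP-Veh replicate 2, the highest same-number values. Such correlations cannot exclude a pairing or a batch. With the block, 4 members were lower in GFP-AL against GFP-Veh and 3 higher in LH3-AL against GFP-AL. Depth limits genes of few fragments, such as Ndufab1 (from an estimated 86 in a library) and Atp5s (from an estimated 53).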
